A study of Mus musculus with 18 samples.

Results

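The semaphorins with their plexin receptors and the ephrins with their Eph receptors are large families of proteins that steer growing axons. They were taken here as every protein-coding gene whose symbol begins with Sema, Plxn, Efna, Efnb, Epha or Ephb, which gave 51 of the 21774 nuclear protein-coding genes in the RefSeq table of GRCm38. The set holds 28 ligand genes (20 semaphorins and 8 ephrins) and 23 receptor genes (9 plexins and 14 Eph receptors). Their data are the consensus peaks of an ATAC-seq study, which maps open chromatin by where a transposase can cut, in primary cortical neurons from CD1 mouse embryos of embryonic day 14.5 to 15. All cultures received cytosine arabinoside, which kills dividing cells, at 2 µM, and lentiviral short hairpin RNAs (shRNAs) from day 6. They were harvested at day 11. The 18 samples form 4 groups: a control with a scrambled shRNA (shCtrl_shScrambled, 5 samples), a control with an Atf4 shRNA (shCtrl_shATF4, 3 samples), an Opa1 shRNA with a scrambled shRNA (shOpa1_shScrambled, 5 samples) and Opa1 with Atf4 shRNAs (shOpa1_shATF4, 5 samples). The labels do not say whether samples came from separate litters or cultures, nor what else the cultures held beside neurons.

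The file is a single list of 211682 peaks with no value for a sample or a group. The knockdowns could therefore not be compared, depth per sample is unknown, and no value below has a standard deviation or an n of cultures. Genes are not replicates, so differences between families are descriptions and were not tested. The median peak was 425 bp wide, and the deposited score stood at its ceiling of 1000 for all but 1.53% of nuclear peaks. Of marker genes for the cell type, 6 of 6 pan-neuronal, 3 of 4 excitatory, 4 of 4 inhibitory, 2 of 4 astrocyte, 3 of 4 oligodendrocyte lineage, 1 of 4 microglia and 3 of 4 vascular genes had a peak within 1000 bp of a gene end, against 70.4% of all protein-coding genes.

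Semaphorins are defined by a sema domain and bind plexins, single-pass receptors whose inner part acts on small GTPases and so on the cytoskeleton. The class 3 semaphorins of vertebrates are secreted and mostly need a neuropilin as co-receptor, while classes 4 to 6 span the membrane and class 7 hangs on a lipid (GPI) anchor. Ephrins are bound to the cell surface, the A class by a GPI anchor and the B class by a membrane span, and Eph receptors are the largest family of receptor tyrosine kinases. Both systems mostly repel axons, and both go on to shape synapses and dendrites in the cortex.

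The promoter sequences that follow show the contrast found at the transcription starts of these genes. They are, per family, the promoter under the widest peak over an annotated start and, where one exists, the promoter of a member with no peak there. Each is the 250 bases before a start in the RefSeq promoter table (GRCm38.p6), 5′ to 3′ on the strand of the gene. Capitals mark each match to a GC box (GGGCGG), the only one of the motifs searched for marking that is present in them. The others were the CRE (TGACGTCA), the C/EBP-ATF element that ATF4 binds (TGATGNAAT), the TATA box (TATAAA) and the AP-1 site (TGANTCA), all on both strands. The first 4 lay wholly under a peak and the last pair had no base under one.
Sema5b, chr16:35541112-35541361, plus strand: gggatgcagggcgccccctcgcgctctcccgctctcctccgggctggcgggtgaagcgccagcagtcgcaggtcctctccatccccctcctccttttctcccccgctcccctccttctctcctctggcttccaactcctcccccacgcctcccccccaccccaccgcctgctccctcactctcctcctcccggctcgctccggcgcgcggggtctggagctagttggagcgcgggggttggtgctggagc
Plxnc1, chr10:94944846-94945095, minus strand: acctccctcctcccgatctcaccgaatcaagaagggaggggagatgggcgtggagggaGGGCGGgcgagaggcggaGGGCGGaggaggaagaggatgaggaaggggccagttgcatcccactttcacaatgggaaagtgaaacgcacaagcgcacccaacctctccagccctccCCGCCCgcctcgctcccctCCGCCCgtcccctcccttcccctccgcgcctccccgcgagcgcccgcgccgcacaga
Efna5, chr17:62881318-62881567, minus strand: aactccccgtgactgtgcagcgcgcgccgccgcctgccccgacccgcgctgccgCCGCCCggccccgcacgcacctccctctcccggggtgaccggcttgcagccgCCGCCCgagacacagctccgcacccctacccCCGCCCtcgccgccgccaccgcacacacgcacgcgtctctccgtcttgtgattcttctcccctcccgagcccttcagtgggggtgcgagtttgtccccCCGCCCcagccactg
Ephb2, chr4:136836013-136836262, minus strand: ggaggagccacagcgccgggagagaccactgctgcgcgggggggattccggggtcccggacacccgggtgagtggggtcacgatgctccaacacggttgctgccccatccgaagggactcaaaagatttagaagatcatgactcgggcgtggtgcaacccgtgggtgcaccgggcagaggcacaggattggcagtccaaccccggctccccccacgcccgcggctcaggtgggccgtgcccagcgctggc
Sema3a, chr5:13396534-13396783, plus strand: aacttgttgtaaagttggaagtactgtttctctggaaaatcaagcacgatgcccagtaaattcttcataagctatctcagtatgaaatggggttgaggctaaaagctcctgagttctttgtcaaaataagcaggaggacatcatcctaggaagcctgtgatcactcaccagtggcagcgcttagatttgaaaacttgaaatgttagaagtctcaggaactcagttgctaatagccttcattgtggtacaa
Plxnb3, chrX:73756853-73757102, plus strand: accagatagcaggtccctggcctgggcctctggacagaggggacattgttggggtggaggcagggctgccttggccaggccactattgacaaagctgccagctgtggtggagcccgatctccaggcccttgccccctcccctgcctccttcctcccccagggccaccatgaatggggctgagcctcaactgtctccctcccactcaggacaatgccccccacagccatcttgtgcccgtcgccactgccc

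The first 4 promoters held 19, 22, 32 and 20 CpG dinucleotides in 250 bases, and those of Sema3a and Plxnb3 held 2 and 3. The Plxnc1 and Efna5 promoters carried 4 GC boxes each, and the other 4 promoters carried none. Of the 51 genes, 45 were matched to 59 promoters in the table, and Plxna1, Plxna4, Sema3b, Sema3f, Sema6a and Efnb3 had no entry. The 50 member promoters with a peak over the start had a median of 17 CpG, and the 9 without one had a median of 2, against medians of 16 and 2 over the 12996 and 8267 promoters of all protein-coding genes with and without such a peak. The 9 belonged to 7 genes: Sema3a, Plxnb3, and Sema4a, Sema4d, Sema6b, Sema6c and Sema6d, which each had another start under a peak. A GC box lay in 44 of 59 member promoters, against 42.6% of promoters of all protein-coding genes. Among promoters with a peak over the start, it lay in 40 of 50 member promoters, against 61.5%. An E-box (CANNTG) lay in 29 of the 59, against 62.8%, and in 24 of the 50 with a peak over the start, against 56.5%. Of the 59, a CRE lay in 1, that of Epha2, against 1.92%, and an AP-1 site in 3, against 6.13%. Among the 50 with a peak over the start, a CRE lay in 1, against 2.82%, and an AP-1 site in 1, against 4.22%. A TATA box lay in 1, that of Efnb2, against 11.6%, or against 5.64% of promoters with a peak over the start, as Efnb2 has. The C/EBP-ATF element lay in none of the 59, against 0.663% of all promoters. A match is a string of letters, not a measured site.

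Nearly all of these genes had an accessible start. Of the 45 with an annotated start, 43 had a peak over it, against 62.5% of protein-coding genes. Among genes of 100 kb or longer these were 17 of 18 members, against 1603 of 1866 protein-coding genes. Among shorter genes they were 26 of 27, against 9334 of 15626. The exceptions were Sema3a and Plxnb3, and neither had a peak within 1000 bp of the start, where 68.0% of protein-coding genes had one. All 51 genes could be judged by the cruder rule that a peak lie within 1000 bp of an outermost end, and 47 met it, against 70.4%. That share depends on length. Of members of 100 kb or longer 18 of 20 met the rule, near the 86.9% of all protein-coding genes of that length. Of members under 100 kb 29 of 31 did, against 68.3%. By family, the rule was met by 18 of 20 semaphorins, 8 of 9 plexins, 8 of 8 ephrins and 13 of 14 Eph receptors. The members without an end peak were Sema3a, Sema3b, Plxnb3 and Epha6.

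These 4 genes differed in what lay near them. Sema3a, the secreted repellent that collapses growth cones through neuropilin-1 and plexin A (chromosome 5, 13124822 to 13603485), has its annotated start at 13396784, deep inside its outermost limits. The nearest peak began 1882 bp beyond that start, from 13398666 to 13399713, and at 1048 bp it was the widest of the 25 peaks of the gene. Epha6, an ephrin A receptor and the longest member (chromosome 16, 59641433 to 60610911), did have its annotated start covered, by a 1821 bp peak from 60604869 to 60606689. Its outermost end on that side lay 3511 bp from the nearest peak. Sema3b, a class 3 semaphorin with no start in the promoter table (chromosome 9, 107597674 to 107609241), had its nearest peaks 2202 and 2921 bp from its ends. Plxnb3, a plexin B gene on X (73756556 to 73772510), had no peak inside the gene and 3 in its flanks.

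Peaks over the starts were often wide. The 43 had a median width of 1255 bp, against 1169 bp for protein-coding genes outside the families. Width rose with gene length. At 100 kb or longer the median was 1303 bp for members and 1297 bp for all protein-coding genes, and the upper quartiles were 1900 and 1607.5 bp. Under 100 kb the medians were 1234.5 and 1150.5 bp. Of the 43 peaks, 9 were at or above 1898 bp, the 95th percentile outside the families. Of all genes with a start peak, 5.10% reached that width. The widest stood at Plxnc1, a receptor of semaphorin 7A (2447 bp, from 94943252 to 94945698 on chromosome 10), and at Ephb2, an ephrin B receptor of axons and synapses (2362 bp, from 136834640 to 136837001 on chromosome 4). Sema5b, a transmembrane semaphorin with thrombospondin repeats, had 2314 bp, and Epha10, an Eph receptor whose kinase domain is inactive, had 2130 bp. Plxnd1, the receptor of semaphorin 3E, had 2093 bp, and Sema4c, a ligand of plexin B2, had 2075 bp. Efna5, which encodes the ephrin that maps retinal axons, had 2054 bp, Sema7a had 1922 bp and Sema5a had 1900 bp. These wide start peaks thus came from all 4 families and from both ligands and receptors. The widest end peak of all members was at Plxna4, whose start is not in the promoter table (2589 bp, chromosome 6, 32586301 to 32588889). The narrowest start peaks were at Sema3g (577 bp) and Epha1 (613 bp).

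**Figure D1:**
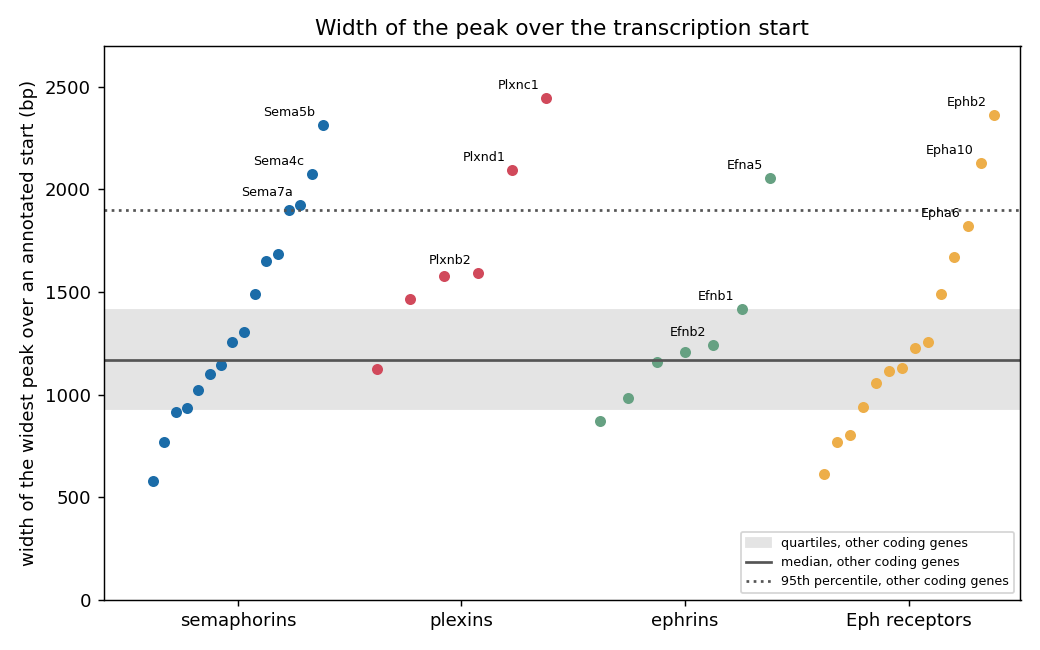
Width in bp of the widest peak over an annotated start (vertical axis) for the 43 members that have one, by family; each point is 1 gene, and the band and lines give the quartiles, median (1169 bp) and 95th percentile (1898 bp) of other protein-coding genes. Plxnc1, Ephb2 and Sema5b are the widest, at 2447, 2362 and 2314 bp.

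Counted over the gene and 10 kb on either side, members had a median of 12 peaks, with a range of 2 to 83, and all protein-coding genes had a median of 5. The 1011 gene and peak pairs came from 1007 different peaks, because Efna3 and Efna4, which are neighbours, shared 4. Long genes hold more peaks, so each gene was set against the median of the 200 protein-coding genes outside the families nearest to it in length, called its length neighbours. Of the 51 members, 38 lay above that median, 2 were equal to it and 11 lay below, where 43.9% of all protein-coding genes lay above theirs and 41.2% below. At least 2 times the median was reached by 24 members, against 15.4% of all genes. At most 0.5 times was seen in 5 members, against 24.7%. Both shares are over all 21774 genes, of which 1693 had a neighbour median of 0 and so no ratio. Such genes could reach neither limit, and every member had a ratio. The median ratio of a gene to its length neighbours was 2.0 for ligands and 1.63 for receptors, against 1.0 over all protein-coding genes. By family it was 1.69 for semaphorins, 1.91 for plexins, 2.38 for ephrins and 1.52 for Eph receptors.

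**Figure D2:**
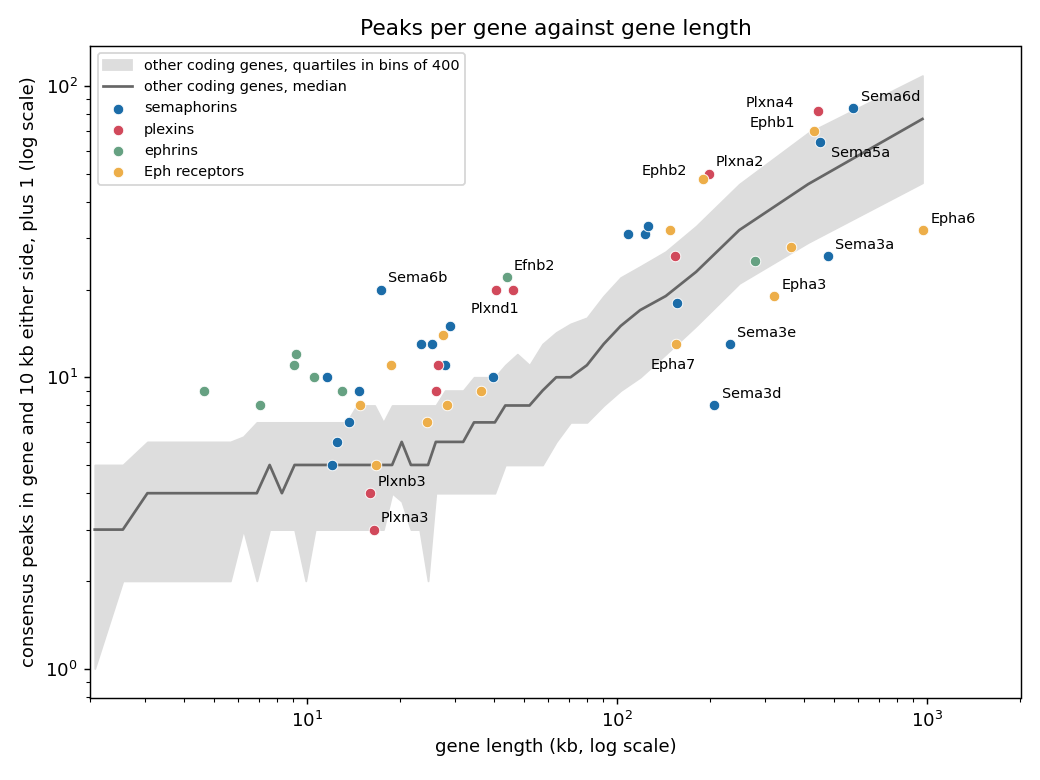
Number of consensus peaks in each gene and 10 kb either side plus 1 (vertical axis, log scale) against gene length in kb (horizontal axis, log scale), each point being 1 of the 51 members, with the median and quartiles of other protein-coding genes in bins of 400 by length. Most points lie above the median line, and a group of long genes that includes Sema3d (7 peaks), Sema3e (12) and Epha6 (31) lies below it.

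Among ligands, the semaphorins of 100 kb or longer divided by class. All 4 class 3 genes of that length lay below their length neighbours, against 47.8% of all protein-coding genes of 100 kb or longer. All 4 lie in a sparse stretch of chromosome 5 described below. Sema3d had 7 peaks against a neighbour median of 25, and 94% of its neighbours had more. Sema3e, the ligand of plexin D1, had 12 against 27, Sema3a had 25 against 49.5, and Sema3c had 17 against 19. The 3 short class 3 genes lay above instead, as did 43.2% of all protein-coding genes under 100 kb. Sema3f, which acts through neuropilin-2 (chromosome 9, 107681499 to 107710475), had 14 peaks against 5, Sema3b had 9 against 4 and Sema3g had 5 against 4.

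None of the 12 transmembrane semaphorin genes of classes 4 to 6 lay below its neighbours, and 11 lay above, with a median ratio of 1.94. Of all protein-coding genes 41.2% lay below and 43.9% above. Sema6b, a ligand of plexin A4 (chromosome 17, 56123085 to 56140343), had the highest ratio of all members. It held 19 peaks against 4, more than any of its 200 neighbours. Sema6d had the most peaks of any member, with 83 in a gene of 577.8 kb against a neighbour median of 55. Sema5a had 63 against 44, Sema6a, a ligand of plexins A2 and A4, had 32 against 16, and Sema5b had 30 against 16. Sema4d, the ligand of plexin B1, had 30 against 14, Sema4g had 8 against 3 and Sema4a had 12 against 5. Sema4f had 10 against 5, though its ratio was 0.929 with flanks of 50 kb, and Sema4b and Sema6c had ratios of 1.5. Sema4c equalled its neighbours at 4 peaks. The single class 7 gene, Sema7a, had 12 against 4, but 1 of the 12 was at least 500 bp wide, and over peaks of that width its ratio was 0.5.

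The ephrins were mostly short genes, and 7 of 8 had at least 2 times the peaks of their neighbours, against 15.4% of all protein-coding genes. Efnb2, the ligand of EphB4 in vessels and of EphB receptors in neurons (chromosome 8, 8617235 to 8661242), had 21 peaks against 6. Efna1, Efna3 and Efna4 lie within 66.3 kb on chromosome 3 (89271730 to 89338028) and had 11, 10 and 8 peaks against 4, 4 and 3. That stretch held 22 peaks, or 33.2 per 100 kb against 7.11 over the chromosome, and these 3 genes had 16 to 18 other protein-coding genes within 100 kb. Of their peaks, 3, 1 and 2 lay within 1000 bp of an end of another protein-coding gene. Efna2 had 9 peaks against 4, Efnb3, the ephrin of the spinal midline, had 7 against 3.5, and Efnb1, on X, had 8 against 4. For Efnb1 the ratio was 0.5 over peaks of at least 500 bp and 0.769 with flanks of 50 kb. That of Efna2 was 1.0 over peaks of at least 500 bp. Against neighbours matched on length and nearby protein-coding genes, Efna2 had 1.8 and Efnb3 had 1.75. The only long ephrin gene, Efna5 (278.4 kb), had 24 against 34.

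Among receptors, Plxna4 held the most peaks. Plxna4, a co-receptor of neuropilins for class 3 semaphorins, had 81 peaks against a neighbour median of 42.5, and Plxna2 had 49 against 23. Plxna1 had 19 against 7 and Plxnd1 had 19 against 6. Plxnb2 and Plxnb1 had 10 and 8 against 5, and Plxnc1 had 25 against 19.5. For Plxnb1 the ratio was 0.923 with flanks of 50 kb, and 1.0 with flanks of 2 kb or over peaks of at least 500 bp. The plexins below their neighbours were Plxna3, with 2 peaks against 4, and Plxnb3, with 3 against 4, and both lie on X. Chromosome X was sparse in general, with 1 peak at the median over its 963 protein-coding genes. Of these 963, 781 lay below their length neighbours and 94 above. Their median ratio was 0.3, lower than that of Plxna3 (0.5) and Plxnb3 (0.75). Efnb1, with 8 peaks and a ratio of 2.0, was the third member on X.

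The Eph receptors divided by class and length. Of the 5 long EphA genes, 4 lay below their neighbours, against 47.8% of all protein-coding genes of 100 kb or longer. Epha6 had 31 peaks against 66.5, Epha3 had 18 against 36, Epha7 had 12 against 19 and Epha5 had 27 against 39. The neighbours of Epha6 ranged from 523 to 1643 kb, because few genes are as long as its 969.5 kb. Epha4, a receptor of ephrins of both classes (chromosome 1, 77367182 to 77515107), was the exception, with 31 peaks against 19. The short EphA genes all lay above, where 43.2% of all protein-coding genes under 100 kb did. Epha8 led with 13 against 5, then Epha1 with 7 against 4, Epha2 with 7 against 5 and Epha10 with 8 against 6.

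None of the 5 EphB genes lay below its neighbours, where 41.2% of all protein-coding genes did. Ephb1 had 69 peaks against 42, Ephb2 had 47 against 22, Ephb3 had 10 against 4 and Ephb4, the receptor of ephrin B2 on veins, had 6 against 3. Ephb6, whose kinase domain is inactive, equalled its neighbours at 4. Of the 6 peaks of Ephb4, 1 lay inside the gene, and without the flanks its ratio was 0.5.

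**Figure D3:**
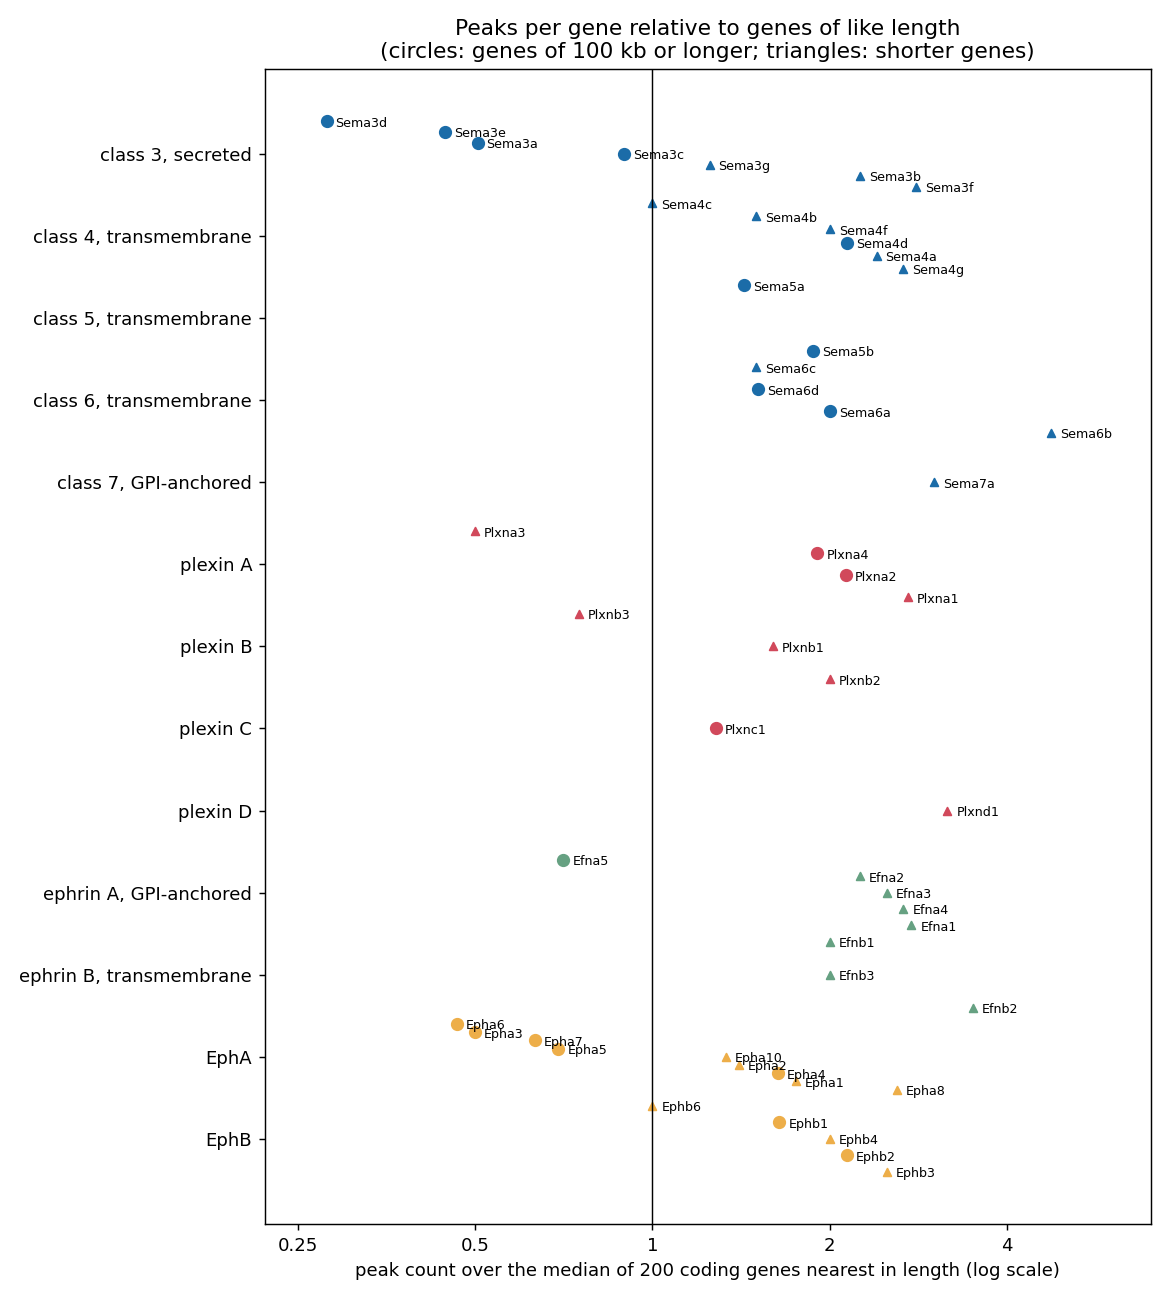
Ratio of each member's peak count to the median of its 200 length neighbours (horizontal axis, log scale), by class of ligand or receptor; circles are genes of 100 kb or longer, triangles shorter genes, and the line marks 1. The long class 3 semaphorins, Efna5, 4 long EphA genes, Plxna3 and Plxnb3 lie left of the line, and Sema6b is farthest right at 4.75.

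Length thus separated the members, a split chosen after the values were seen. Of 31 genes under 100 kb, 27 lay above their neighbours and 2 below, against 43.2% and 40.3% of all protein-coding genes of that length. These short members had a median of 9 other protein-coding genes within 100 kb, against 5 for all short genes. With neighbours matched also on that number, 38 of the 51 members again lay above, against 44.9% of all genes. Without flanks 36 did, against 37.4%. Of 20 genes of 100 kb or longer, 11 lay above and 9 below, against 49.5% and 47.8% of all protein-coding genes of that length. Their median ratio was 1.36, against 1.0 for all such genes. Among the 20 ratios, 4 were at most 0.5 (against 18.8%) and 4 at least 2 (against 10.9%). Long ligands had 5 genes on each side. Long receptors had 6 above and 4 below. All 9 long members below stayed below in every alternative tried, but against neighbours matched also on how many protein-coding genes lie near, chosen after seeing the data, the ratio of Sema3a moved from 0.505 to 0.833 and that of Epha6 from 0.466 to 0.816.

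**Figure D4:**
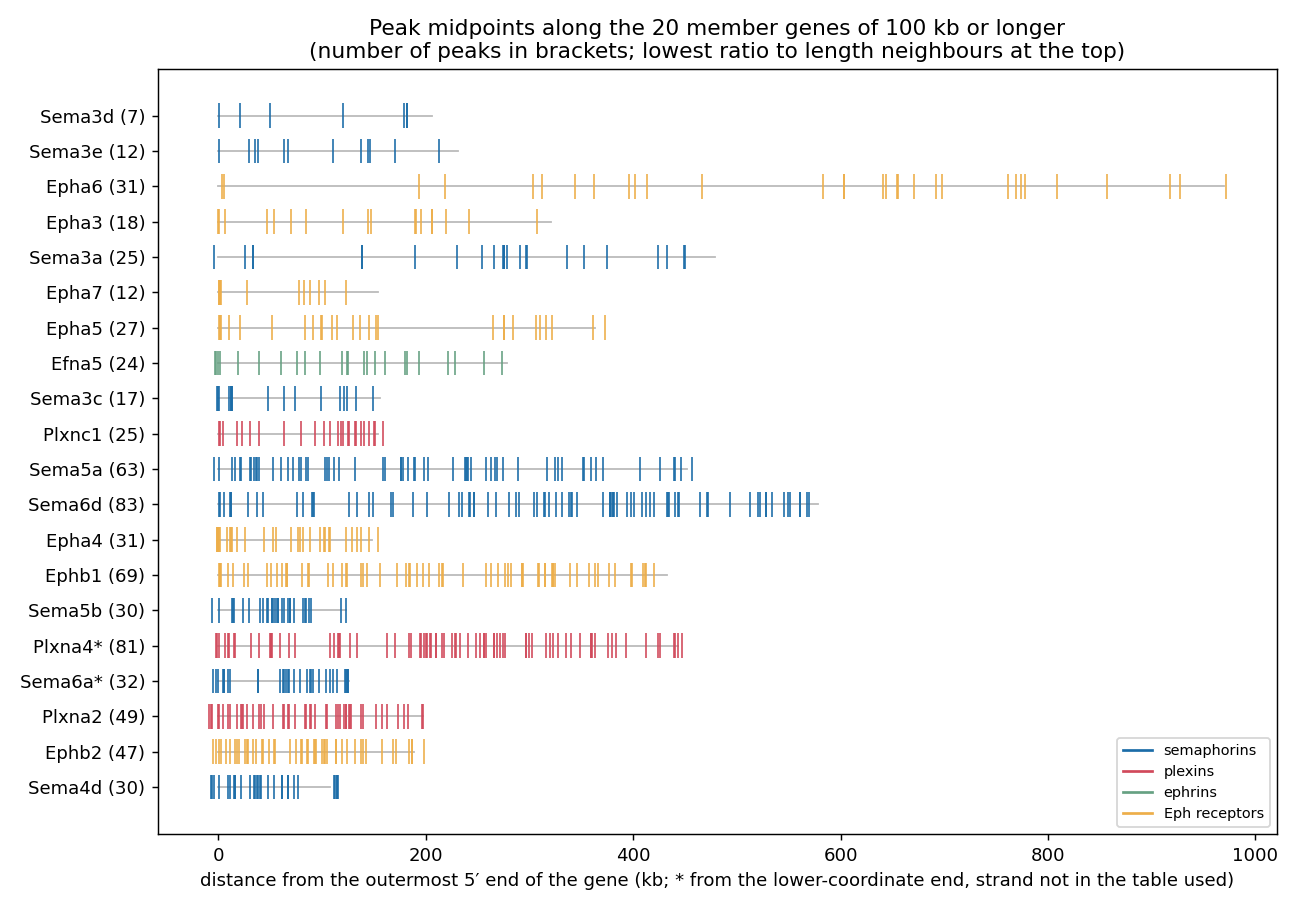
Peak midpoints (ticks) along the 20 members of 100 kb or longer, by distance in kb from the outermost 5′ end, or from the lower-coordinate end for Plxna4 and Sema6a, with the lowest ratio to length neighbours at the top and the peak count in brackets. Epha6, Epha5 and Sema3a show long stretches with no peak, and Plxna2 and Ephb2 have none longer than 12.7 and 14.2 kb.

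Inside these long genes, peaks were spread over the whole body. Over the 18 with a known strand, 35.1% of 570 peaks lay in the third of the gene nearest the 5′ end, 35.8% in the middle and 29.1% in the last, against 33.5, 33.0 and 33.4% for the same parts of other long protein-coding genes. The longest stretch without a peak was 187.2 kb in Epha6, 110.5 kb in Epha5, 104.3 kb in Sema3a and 69.9 kb in Sema3d. As shares of the gene these were 19.3, 30.4, 21.8 and 33.9%. In other long protein-coding genes the longest stretch had a median of 35.5 kb, and its share of the gene a median of 18.1%. All 11 long members above their neighbours had a longest stretch at or under that 35.5 kb median, as did 2 of the 9 below. Other long genes divided much the same way, with 80.3% of those above their neighbours and 18.5% of those below at or under it. In Sema6d it was 33.4 kb, 5.78% of the gene, and in Ephb1 20.8 kb, 4.81%.

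The sparse members lay in sparse surroundings. In the 500 kb on each side of Sema3d and its flanks there were 17 peaks, or 1.7 per 100 kb, beside 3.10 per 100 kb in the gene and flanks. Epha7 had 1.6 per 100 kb around it and 6.88 in its own window, and Epha6 had 2.7 and 3.13. Of the 9 long members below their neighbours, 8 had surroundings under 6.5 per 100 kb, the lower quartile for other long genes, and Efna5 had 7.7. Among other long genes below their neighbours, 43.2% had surroundings that sparse. Of the 11 long members above, 3 did (Sema5a, Sema6d and Epha4), against 7.30% of other long genes above theirs. Sema3d, Sema3a, Sema3e and Sema3c lie in this order within 5347 kb of chromosome 5, which held 4.21 peaks per 100 kb against 9.34 over the chromosome. The part of the surroundings in the counts of these genes was not tested. Epha4 had 18.5 peaks per 100 kb beside 5.2 around it, Sema6d had 13.9 beside 5.5 and Sema5a had 13.4 beside 6.1. The 9 long members below their neighbours were also denser than their surroundings, at 3.10 to 9.69 peaks per 100 kb.

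**Figure D5:**
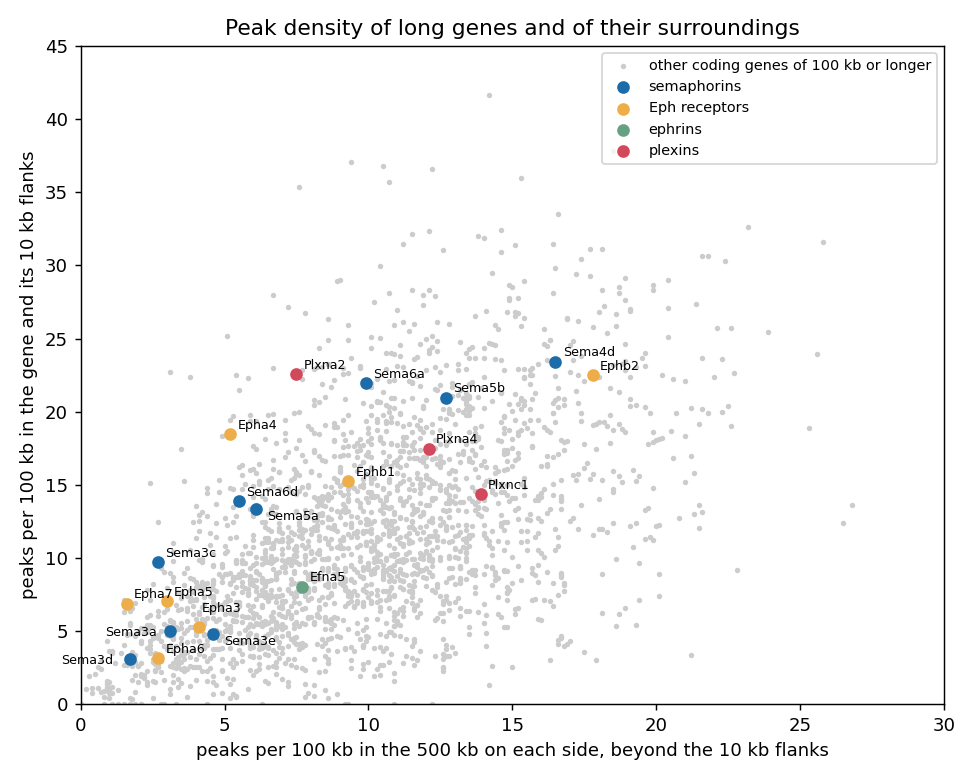
Peaks per 100 kb in each long gene and its 10 kb flanks (vertical axis) against peaks per 100 kb in the 500 kb beyond on each side (horizontal axis); coloured points are the 20 members of 100 kb or longer, grey points other protein-coding genes of that length. Sema3d, Epha6 and Sema3a sit at the lower left, and Epha4 and Plxna2 lie high above their surroundings.

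The other genes of both pathways were taken from a list of 48 co-receptors, adaptors and effectors, all found in the table. Each of the 48 had a peak at a gene end, against 70.4% of protein-coding genes. Many of the 48 are 100 kb or longer, and of all protein-coding genes of that length 86.9% had one. Above their length neighbours lay 37 (43.9% of all protein-coding genes did) and below them 10, and the median ratio was 1.69. Both neuropilin genes lay above, Nrp2 with 33 peaks against 15 and Nrp1 with 25 against 19. So did the 5 genes of the collapsin response mediator proteins, which carry semaphorin signals to microtubules, from Crmp1 (24 against 7) to Dpysl3 (22 against 16). Fyn, a kinase downstream of plexin A and of ephrin A, had 77 peaks against 23, more than any of its neighbours. Kalrn and Tiam1, exchange factors for Rac used by EphB receptors, had 135 against 55 and 90 against 38. Among the 10 below their neighbours were Rasa1, a Ras inhibitor bound by EphB2, with 2 against 9, and Adam10, the protease that cuts ephrins, with 4 against 14. Others were Rap1b, with 2 against 6, and Pak1, a Rac target, with 8 against 16.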

How the data were processed

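The authors deposited 1 list of consensus ATAC-seq peaks for the series of 18 samples, with a start, an end and a score per peak. Peak names in the file carry the word MSPC, a tool that merges replicate calls. Per the submitters' processing notes the build was mm10; MultiQC, MACS2 and deepTools are named there without version or role. For aligner, transposase shift, thresholds and which samples were merged, the sources used here give nothing. No peak was ranked or filtered on the deposited score.

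The members, lists and rules were chosen with earlier results of these data known. From the RefSeq table of GRCm38.p6, 17 genes without a chromosome, 348 on scaffolds and those of the mitochondrial genome were left out. A peak counted by any overlapping base within 1000 bp of an outermost end, over an annotated start, or in the gene and 10 kb either side. Length neighbours were the 200 coding genes nearest in log length, members left out. The rule for named genes took, per family, those with the most peaks, the highest and lowest ratios and the widest end peaks or none; the other members are given more briefly. The ratio to length neighbours was checked on simulated counts, with a limit set only for genes expected to hold many peaks. Overlap counting was checked on the real peaks against a plain loop for a sample of genes. Windows, flanks, peak width and neighbours were varied, and 2 further settings were added after the data were seen. Python 3.11.15, numpy 2.4.6, pandas 2.3.3 and matplotlib 3.10.9 were used.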

Additional observations from a re-analysis of the deposited data

How the results depend on the processing

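Peak counts per gene moved with the window, as their construction implies. The median of ligands, 11.5 peaks, was 7.5 with flanks of 2 kb, 26.5 with 50 kb, 7 with none and 4.5 with peaks of at least 500 bp. That of receptors, 13, was 23 with flanks of 50 kb and 6 with peaks of at least 500 bp, but 12 with flanks of 2 kb and 12 with none. The ratio to length neighbours stayed between 1.73 and 2.04 for ligands and between 1.14 and 1.75 for receptors over 11 alternatives each. Its lowest receptor value came with peaks of at least 500 bp. Between 31 and 40 members lay above their neighbours, while the share of all protein-coding genes ran from 37.4 to 48.6%. Between 41 and 50 had an end peak, while that share ran from 57.5 to 77.0%. These counts are of 51 members, or of 48 on chromosomes 1 to 19 and 45 with an annotated start. Of the 38 above, 29 were above in all 11 alternatives, and of the 11 below, 9 were below in all that apply to them; the others changed side or became equal in at least 1. With peaks of at least 500 bp the ratios of Sema7a and Efnb1 were 0.5. Neighbours matched on length and on coding genes within 100 kb, chosen after seeing the data, brought Sema3a to 0.833, Epha6 to 0.816 (as did 1000 length neighbours) and Efna5 to 0.96, with Sema3d at 0.333. No paired analysis was possible because the file has no column for a sample, and for the same reason no replicate could be left out.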

Other observations

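Several members had start peaks at more than 1 annotated start. Efna1 had peaks of 614 and 1207 bp at its 2 starts, Efna3 had 864 and 869 bp, Sema4b had 1011 and 1489 bp and Plxnb2 had 1592 and 1294 bp. In Sema4d, the peak over the annotated start at 51756683 was 770 bp wide, and the widest of the gene, 1623 bp, lay at its outermost end of higher coordinate (chromosome 13, 51792284 to 51793906). The second annotated start of Sema6d, at 124653581, had no peak over it, while the first had 1651 bp. The Sema3d promoter held 4 CpG in 250 bases, that of Sema4f 4 and that of Sema4d at 51756683 held 1, and each lay at a peak over the start (1303, 914 and 770 bp). Of the 1007 peaks in member windows, 17 had a deposited score below the ceiling (1.69%, against 1.53% of nuclear peaks), and 403 were at least 500 bp wide (38.3% of all nuclear peaks were).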
